A study of Mus musculus with 18 samples.

Results

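The 7 genes described here are Dppa2, Dppa3, Dppa4, Dppa5a, Tcl1, Fbxo15 and Rex2. They were chosen by name as genes of embryonic stem (ES) cells and early germ cells that are silent in fibroblasts. The series holds no germ cell sample, so their expression in germ cells was not tested. All 7 were found among the 17818 gene symbols of the ES table and the 17813 of the fibroblast table. Their RNA was measured in mouse cells that lost Trim28, the gene for the corepressor TRIM28 (also called KAP1), together with H3K9me3 regions and KAP1 peaks in the chromatin of the ES cells. Of 18 libraries in the labels, 4 RNA libraries and 6 region lists from chromatin were used here. The ES cells were ES3, a C57BL/6 line kept in serum and leukaemia inhibitory factor. Wild-type ES3 cells were cultured for 4 days, and knockout ES3 cells were taken 4 days after a Cre recombinase had been induced with 4-hydroxytamoxifen (4-OHT). Mouse embryonic fibroblasts (MEFs), also C57BL/6, were cultured for 5 days as wild type or taken 5 days after the same induction. The labels do not say whether wild-type cells were given 4-OHT or carried the Cre, and they describe H3K9me3 as reduced but still present at this time after knockout. Duplicate cultures were pooled before RNA was extracted, so each group is 1 library, no spread or test between conditions can be given, and genes are described by the size of their difference alone.

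DPPA2 and DPPA4 are related nuclear proteins with a SAP DNA-binding domain that work together and help ES cells switch on genes of the two-cell embryo. DPPA3 (also called Stella or PGC7) is a maternal and germ cell factor that protects DNA methylation after fertilisation and restrains the methylation cofactor UHRF1. DPPA5A (ESG1) is a small RNA-binding protein of the KH type, TCL1 is a coactivator of the AKT kinases, and FBXO15 is an F-box protein, the substrate-binding part of an SCF ubiquitin ligase, whose gene is a classical target of OCT4 and SOX2. REX2 is a zinc finger protein. TRIM28 is brought to DNA by KRAB zinc finger proteins and recruits the enzymes that place H3K9me3, a repressive histone mark.

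Promoter sequences are shown for the pair of genes at the opposite ends of the response, Tcl1 with the lowest and Rex2 with the highest knockout to wild-type ratio of the 7 genes. The sequences are from RefSeq, build GRCm38.p6, and span 250 bases before to 50 after the annotated start; these 2 of the 7 genes had an entry. Tcl1 lies on the minus strand at chr12:105222688-105222987 and Rex2 on the plus strand at chr4:147021600-147021899. Capitals mark matches to the GC box core CCGCCC on either strand.
Tcl1: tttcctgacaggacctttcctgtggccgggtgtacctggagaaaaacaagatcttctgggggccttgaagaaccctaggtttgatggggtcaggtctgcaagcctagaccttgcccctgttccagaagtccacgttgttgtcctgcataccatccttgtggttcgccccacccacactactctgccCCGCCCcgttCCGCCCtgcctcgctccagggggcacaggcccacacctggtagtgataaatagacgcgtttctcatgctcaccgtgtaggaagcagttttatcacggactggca
Rex2: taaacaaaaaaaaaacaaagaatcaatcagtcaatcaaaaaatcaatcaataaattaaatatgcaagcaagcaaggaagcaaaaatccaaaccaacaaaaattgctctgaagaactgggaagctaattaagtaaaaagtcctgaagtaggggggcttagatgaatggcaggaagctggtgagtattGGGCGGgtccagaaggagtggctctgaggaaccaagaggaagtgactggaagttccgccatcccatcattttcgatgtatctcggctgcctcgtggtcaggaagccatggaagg
The Tcl1 window held 2 matches to CCGCCC and the Rex2 window 1, and 35.7% of 32851 promoters of the same length held at least 1. The octamer ATGCAAAT, the Sox half-site CATTGT, the E-box CACGTG and the TATA box TATAAA, searched on both strands, were in neither window; 1.74%, 12.6%, 7.15% and 13.6% of all promoters held them. Tcl1 had 11 CpG dinucleotides and a GC content of 56.7%, and Rex2 had 5 and 42.3%, against a median of 7 CpG over all promoters. The RefSeq start of Rex2 used here lies 48240 bases inside the gene's annotated span, so the window is not at the gene start of the deposited table.

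Trim28 itself checked the labels. It stood at 1051 RPKM (reads scaled to transcript length and to library size) in wild-type ES3 cells and 37.2 RPKM in the knockout, and at 62.8 and 5.84 RPKM in MEFs. The 5 ES markers Pou5f1, Sox2, Nanog, Zfp42 and Esrrb were all above 1 RPKM in both ES3 libraries, and their summed level was 1199.7 RPKM in wild-type cells against 610.5 RPKM in knockout cells. Fibroblast markers summed to 5384 and 5329 RPKM in the MEF libraries and to 4.30 and 29.2 RPKM in the ES3 libraries, where 3 of the 13 were listed at 0 in wild type. Germ cell markers summed to 11.03 and 11.2 RPKM in ES3 cells, where 4 of 7 were under 1 RPKM in wild type and 4 of 7 in the knockout. Primitive endoderm markers, which mark the early lineage of the yolk sac, rose in sum from 34.3 to 1179 RPKM in the ES3 knockout, with 13 of 13 measured genes at least 2-fold higher; 8 of them were under 1 RPKM in wild type and so counted as measured through the knockout alone. In such bulk RNA, fewer ES cells and less RNA per ES cell cannot be told apart, and the part of the endoderm-marked RNA in the values below was not tested.

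All 7 genes were expressed in both ES3 libraries, and none reached 1 RPKM in either MEF library. Dppa5a was the most abundant by far, ranking above 99.7% of 12024 measured genes in wild type (genes that reached 1 RPKM in either ES3 library). In wild-type ES3 cells the order per transcript length was Dppa5a (712.8 RPKM), Fbxo15 (42.01 RPKM), Dppa4 (37.9 RPKM), Tcl1 (29.8 RPKM), Dppa2 (17.5 RPKM), Dppa3 (13.2 RPKM) and Rex2 (2.84 RPKM). In the knockout it was Dppa5a (328.6 RPKM), Fbxo15 (44.8 RPKM), Dppa2 (27.7 RPKM), Dppa4 (27.1 RPKM), Tcl1 (8.75 RPKM), Rex2 (6.61 RPKM) and Dppa3 (6.33 RPKM). With 1 library a group it cannot be said which neighbours in these orders differ beyond their spread. The range between the highest and lowest gene was 250.8-fold in wild type and 51.9-fold in the knockout. Dppa5a carried 83.3% of the summed RPKM of the 7 genes in wild type and 73.04% in the knockout.

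**Figure D1:**
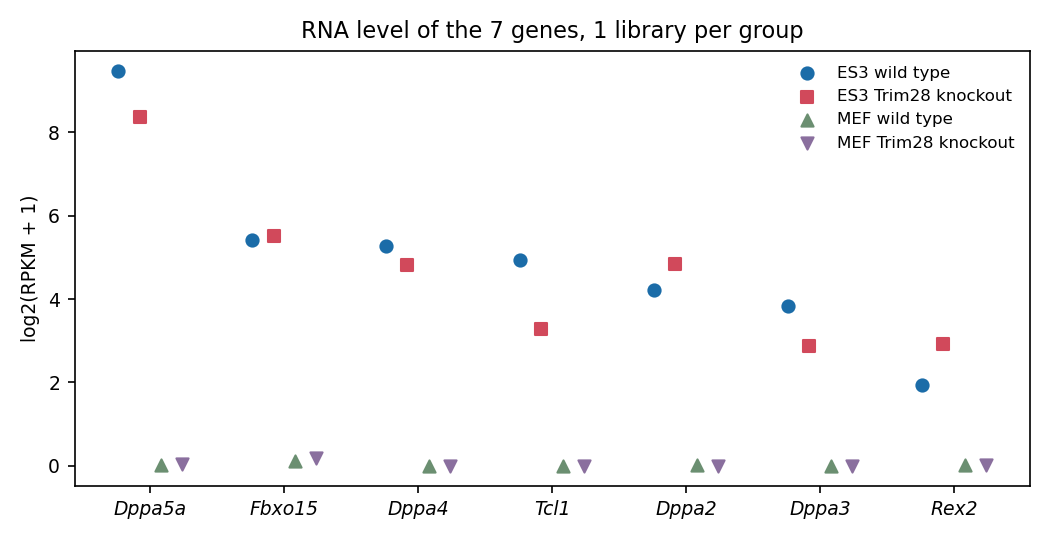
RNA level of each of the 7 genes as log2(RPKM + 1), in the order of their level in wild-type ES3 cells; each point is 1 library. All MEF points lie at or near 0, with a highest value of 0.136 RPKM. The ES3 points of Tcl1, Dppa5a, Dppa3 and Dppa4 are lower in the knockout than in wild type, and those of Dppa2, Fbxo15 and Rex2 are higher.

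In MEFs, Dppa3, Dppa4 and Tcl1 were listed at 0 in both libraries. Dppa2 stood at 0.0228 RPKM in wild-type MEFs and 0.00463 RPKM in knockout MEFs, Dppa5a at 0.0114 and 0.02699 RPKM, and Rex2 at 0.0169 and 0.0138 RPKM. Fbxo15 had the highest values, 0.0928 and 0.136 RPKM. At these levels none of the 7 genes could be called in either direction, and no fold is given; of all measured MEF genes, 4.84% were called lower and 0.981% higher in the knockout. Of all genes of the MEF table, 24.8% lay at or below 0.136 RPKM in both libraries and 9.44% were listed at 0 in both, so silence in MEFs is shared with many genes. In knockout MEFs, as in wild-type MEFs, every one of the 7 genes stayed at or under 0.136 RPKM.

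In the ES3 knockout, the genes went in different directions. Ratios below are log2((knockout + 1)/(wild type + 1)) of RPKM, and a gene was called lower or higher at 2-fold or more; the added 1 RPKM understates the change of low genes. Of the 7 genes, 2 were called lower, none was called higher and 5 lay within 2-fold, where 3.18% of all measured genes were called lower and 12.5% higher. The median ratio of the 7 genes was −0.47, against 0.08 over all measured genes, and 4 of 7 lay below 0 where 44.6% of measured genes did. A pseudocount of 0.1 RPKM in place of 1 RPKM made these counts 3 lower (Dppa3 joined, −1.05) and 1 higher (Rex2, 1.19), so both of these genes sit at the threshold.

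Tcl1 (NM_009337; mm9 chromosome 12, 106454960 to 106460926, minus strand), the AKT coactivator, had the lowest ratio. It stood at 29.8 RPKM in wild-type cells against 8.75 RPKM in knockout cells, which is 29.4% of wild type (log2 ratio −1.66). Only 0.782% of measured genes had a lower ratio. It was the 1 member that also passed a 3-fold threshold.

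Dppa5a (NM_025274; chromosome 9, 78214859 to 78215984, minus strand), the KH-type protein gene, stood at 712.8 RPKM in wild-type cells against 328.6 RPKM in knockout cells. The knockout kept 46.1% of the wild-type value (−1.11), and even so the gene remained above 99.3% of measured genes. RefSeq lists the pseudogenes Dppa5b and Dppa5c near it, so its value is uncertain where reads fit more than 1 copy.

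Dppa3 (NM_139218; chromosome 6, 122576428 to 122580290, plus strand), the maternal methylation guard, stood at 13.2 RPKM in wild-type cells against 6.33 RPKM in knockout cells. That is 47.9% of wild type without a pseudocount, and a log2 ratio of −0.96 with it, just inside the 2-fold line. RefSeq lists a pseudogene of it, Dppa3-ps.

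Dppa4 (NM_028610; chromosome 16, 48283848 to 48294405, plus strand) stood at 37.9 RPKM in wild-type cells against 27.1 RPKM in knockout cells, or 71.5% of wild type (−0.47). Its second transcript, NM_001018002, gave 36.5 and 25.8 RPKM (−0.49). Its partner Dppa2 (NM_028615; chromosome 16, 48310590 to 48319625, plus strand) went the other way, from 17.5 RPKM in wild type to 27.7 RPKM in the knockout, a 1.58-fold difference (0.63). Neither passed 2-fold. The genes lie next to each other on the same strand with starts 26.7 kb apart, and the ratio of Dppa4 to Dppa2 RNA was 2.16 in wild type and 0.979 in the knockout, so that the excess of Dppa4 over Dppa2 seen in wild-type cells was absent.

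Fbxo15 (NM_015798; chromosome 18, 85104397 to 85150863, plus strand), the F-box gene, differed least, with 42.01 RPKM in wild-type cells against 44.8 RPKM in knockout cells (0.09). Rex2 (NM_001177767; chromosome 4, 146346068 to 146434903, plus strand), the zinc finger gene, was the lowest member in wild type at 2.84 RPKM and stood at 6.61 RPKM in the knockout. This is 2.32-fold higher without a pseudocount and a log2 ratio of 0.99 with it, just under the call. Its other listed transcript, NM_009051, carries exactly the same values, and Rex2 belongs to a family of close copies, so its level is uncertain.

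A pattern of high ES and no MEF expression was shared with other genes, and the 7 genes were set beside them. There were 297 ES-restricted genes, defined as 5 RPKM or more in wild-type ES3 cells and under 0.5 RPKM in both MEF libraries; 6 of the 7 members are among them, and Rex2 lies under the 5 RPKM limit. Of these 297 genes, 107 (36%) were called lower and 16 (5.39%) higher in the ES3 knockout, with a median ratio of −0.73. These genes were selected on a high level in wild-type ES3 cells, the denominator of the ratio, and this selection itself favours calls as lower. The share also depends on the limit: from 1 RPKM, 162 of 1027 genes (15.8%) were called lower, with 2 of 7 members, and a pseudocount of 5 RPKM in place of 1 RPKM left 62 of the 297 (20.9%). Of the 6 members above 5 RPKM, 2 were called lower, and nothing is read from the comparison of these shares. Tcl1 had a lower ratio than all but 15.5% of the ES-restricted genes, Dppa5a than all but 33.0% and Dppa3 than all but 39.1%. At the other end, 90.9% of them had a lower ratio than Dppa2 and 80.5% a lower ratio than Fbxo15. By level in wild type Dppa5a ranked 2 among the 297 and Dppa3 ranked 123.

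**Figure D2:**
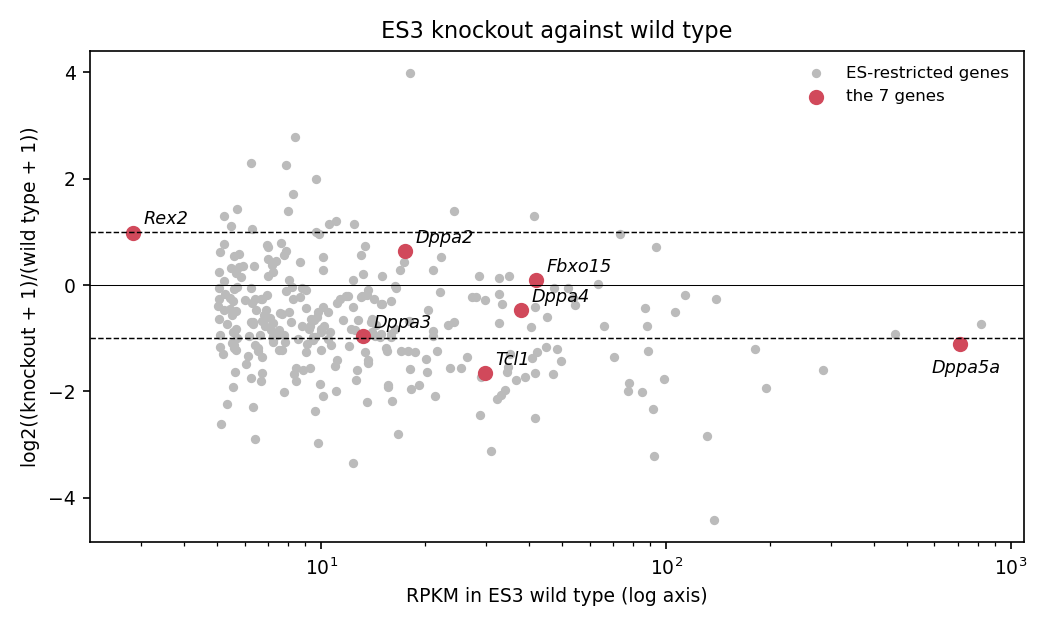
Log2 ratio of knockout to wild type in ES3 cells (pseudocount 1 RPKM) against RPKM in wild-type ES3 cells on a log axis, for 297 ES-restricted genes in grey and the 7 genes in red; dashed lines mark 2-fold. Rex2 is drawn at its value although it lies under the 5 RPKM limit. Tcl1 and Dppa5a lie below the lower line, and Fbxo15 and Dppa2 lie above 0.

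Other pluripotency genes gave a second comparison. Of 30 symbols in a pluripotency list, 28 were found and measured. Of these, 12 were called lower, 1 was called higher and 15 lay within 2-fold, with a median of −0.78. Over all measured genes 3.18% were called lower and 12.5% higher, and of the ES-restricted genes 36% were called lower. The list names genes known from ES cells, and this choice favours calls as lower, so nothing particular to pluripotency is read from the count. Nr0b1, a nuclear receptor, went from 137.3 RPKM in wild type to 5.47 RPKM in the knockout (−4.42). Esrrb (77.8 and 18.7 RPKM, −2.00), Sox2 (195.04 and 49.997 RPKM, −1.94) and Nr5a2 (8.48 and 1.71 RPKM, −1.81) followed. Lifr, the receptor for leukaemia inhibitory factor, was the higher gene (1.39). The 5 ES markers kept between 24.1% (Esrrb) and 60.2% (Pou5f1) of their wild-type RPKM, whereas the 7 genes ranged from 29.4% (Tcl1) to 232.4% (Rex2). In sum the 7 genes kept 52.6% of their wild-type RPKM and the 5 ES markers 50.9%, but the former rests on Dppa5a: without it the sum was 143.2 RPKM in wild-type cells against 121.3 RPKM in knockout cells, or 84.7%.

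**Figure D3:**
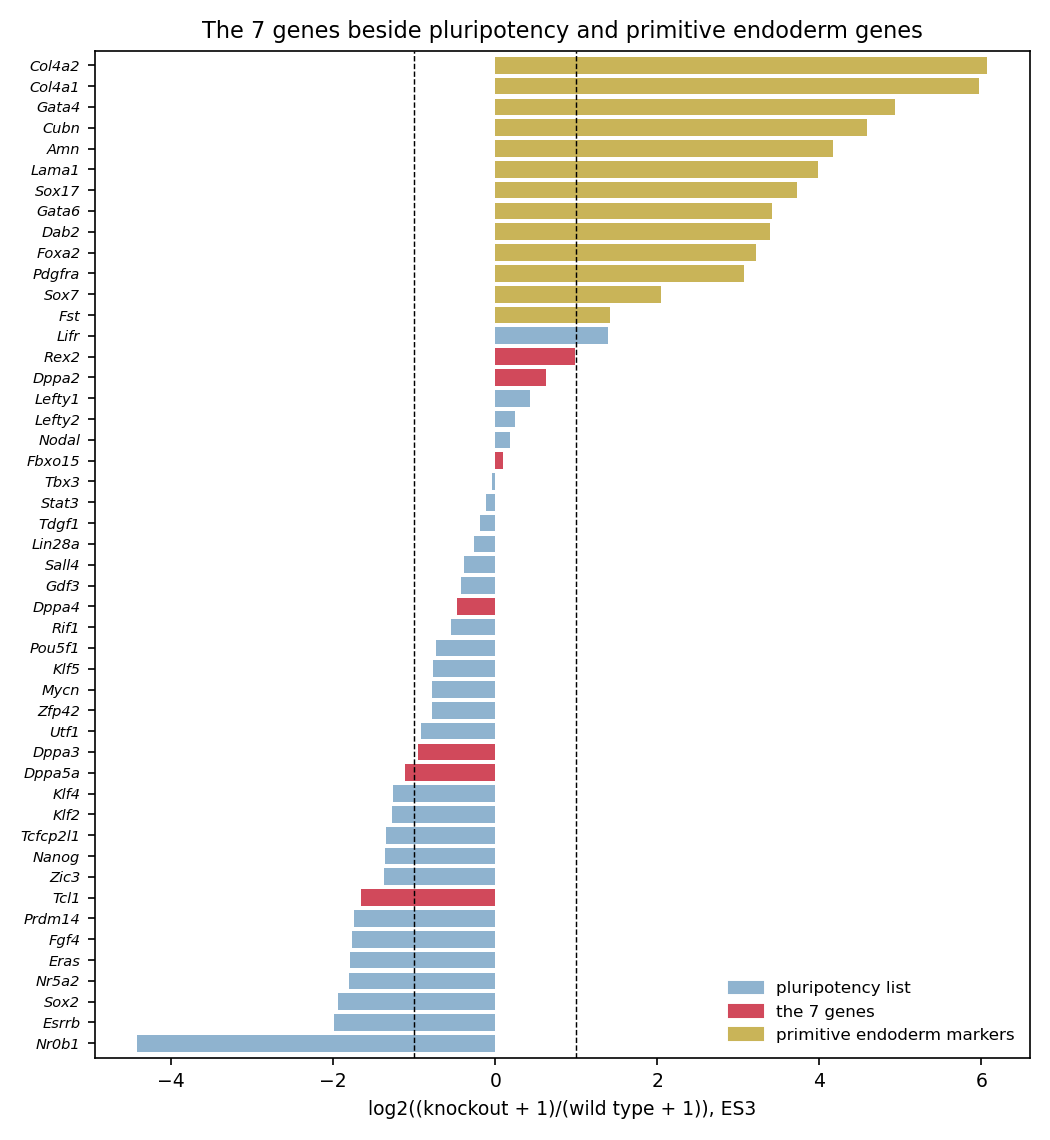
Log2 ratio of knockout to wild type in ES3 cells (pseudocount 1 RPKM) for the 7 genes in red, 28 pluripotency genes in blue and 13 primitive endoderm markers in yellow, sorted; dashed lines mark 2-fold, and each bar is a ratio of 2 libraries. The 7 genes lie between Tcl1 (−1.66) and Rex2 (0.99), inside the range from Nr0b1 (−4.42) to Col4a2 (6.07).

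Genes of a list drawn up as partners of the members mostly lay within 2-fold. Of 15 listed partners, 14 were found and measured, with 10 within 2-fold, 3 called lower, 1 higher and a median of −0.08. Over all measured genes 3.18% were called lower and 12.5% higher. For DPPA3, the cofactor gene Uhrf1 stood at 48.8 RPKM in wild-type cells against 25.5 RPKM in knockout cells (−0.91). The list also holds DNA methylation genes not tied here to a single member. Of these, the demethylase genes Tet1 (35.2 and 13.7 RPKM, −1.30) and Tet2 (23.9 and 8.05 RPKM, −1.46) were lower. The methylation cofactor gene Dnmt3l (285.9 and 93.3 RPKM, −1.61) was lower too. For TCL1, the kinase gene Akt1 was higher, with 4.51 RPKM in wild-type cells against 13.4 RPKM in knockout cells (1.39), while Akt2 lay near 0 (0.18). For FBXO15, the SCF subunit genes Skp1a (0.07), Cul1 (0.32) and Rbx1 (0.10) lay within 2-fold.

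The relatives of the members were mostly unlike them in expression. Among the TCL1 relatives on chromosome 12, Tcl1b4 was listed at 0.164 RPKM in wild type and at 0 in the knockout, and Tcl1b2 and Tcl1b3 were under 0.04 RPKM in wild type and at 0 in the knockout. Dppa1 was near 0 in wild-type ES3 cells (0.00567 RPKM) and in knockout cells (0.0411 RPKM). Of 30 other measured Fbxo genes, 28 lay within 2-fold, 2 were higher, Fbxo34 (1.13) and Fbxo16 (1.08), and none was lower, with a median of 0.04. Of these 30 genes, 27 were also measured in MEFs, unlike Fbxo15. Ooep, an oocyte gene of the KH family beside Dppa5a, did share the direction of its neighbour, with 48.1 RPKM in wild-type cells against 20.3 RPKM in knockout cells (−1.20).

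Germ cell genes, which the members are often grouped with, were mostly low. Of 27 germline genes 26 were found and 13 measured, with 2 called lower, none higher and a median of 0.21. Prdm1, a regulator of germ cell fate, stood at 3.50 RPKM in wild-type cells against 0.820 RPKM in knockout cells (−1.30), and Tex14, of the germ cell bridges, at 4.74 and 1.74 RPKM (−1.07). Mael (−0.96) and Piwil2 (0.91), both of the piRNA pathway, lay within 2-fold. Of 21 two-cell stage genes, the class that DPPA2 and DPPA4 help to activate, 13 were found and 10 measured, with 9 called higher and none lower. Zscan4f was listed at 0.00294 RPKM in wild-type cells against 8.11 RPKM in knockout cells, and Zscan4c at 0.00227 and 6.66 RPKM. Gm12794 and BC080695 were listed at 0 in wild type and at 6.59 and 6.69 RPKM in the knockout. Ddit4l, at 2.54 RPKM in wild-type cells against 16.6 RPKM in knockout cells (2.31), was the 1 called gene measured in wild type. Dub1, at 0.177 and 1.21 RPKM (0.91), was not called. A gene listed at 0 in wild-type cells counts as measured through its knockout value alone, which fixes its call as higher, and near-identical copies make single members uncertain.

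The genes most like each member were sought over the 4 libraries by the distance between log2(RPKM + 1) values, among 12832 genes measured in at least 1 table. For Dppa4 the nearest were Zfp42 (distance 0.24) and Gdf3 (0.25), for Dppa5a Pou5f1 (0.62) and Utf1 (0.76), and for Dppa3 Hsf2bp (0.16) and Ina (0.20). For Dppa2 the nearest was Mpzl2 (0.24), for Tcl1 Rbmxl2 (0.23) and for Fbxo15 B3gnt7 (0.22). The closest match of all was that of Rex2 with Zfp600 (0.04), which stood at 2.88 RPKM in wild-type cells against 6.79 RPKM in knockout cells. The second nearest to Rex2 was Otx2 (0.12), with 2.79 RPKM in wild-type cells against 7.22 RPKM in knockout cells. All 3 genes were near 0 in MEFs, so these distances rest on the ES3 values. Zfp600 lies on chromosome 4 at 146124225 to 146166156, with its start 221.8 kb before that of Rex2, and reads shared between copies were not tested. The third nearest genes were at distances of 0.21 for Rex2, 0.25 for Dppa3, 0.30 for Tcl1, 0.39 for Fbxo15, 0.43 for Dppa4, 0.45 for Dppa2 and 2.10 for Dppa5a, for which Slc2a3 is no close match.

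Neighbouring genes differed from locus to locus. Within 100 kb of the 7 starts lay 14 other genes, of which 7 were measured in ES3 cells, 2 called lower and none higher. Beside Dppa3, in a cluster that also holds Gdf3 and Nanog, Nanog stood at 66.1 RPKM in wild-type cells against 25.03 RPKM in knockout cells (−1.37), the growth factor gene Gdf3 at 41.7 and 31.0 RPKM (−0.42) and the RNA editing gene Apobec1 at 1.16 and 2.00 RPKM (0.47). Beside Dppa5a, Ooep was the lower gene and the tRNA modification gene Mto1 lay within 2-fold (−0.35), while Gsta2, Gm10639 and E330016A19Rik were under 1 RPKM. Around Fbxo15, Cyb5 (0.07) and 1700034H14Rik (0.23) lay within 2-fold, and both were also expressed in MEFs. No other gene of the table started within 100 kb of Rex2, and Tcl1 had only the silent Tcl1b genes.

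Chromatin around the genes was read from region lists of ES3 cells, given in mm9 with no measure of signal for H3K9me3. There were 37002 H3K9me3 regions in wild type and 37221 in the knockout, covering 45.2 Mb and 38.1 Mb. Within 20 kb of the gene start, 3 of the 7 genes (Dppa3, Dppa5a and Rex2) had a wild-type H3K9me3 region, against 24.4% of all 17818 genes, and the same 3 had a knockout region, against 24.3%. Only Rex2 had a region of the wild-type-only list there, against 17.2% of genes. A KAP1 peak called in wild type over knockout lay within 20 kb of the start of Dppa5a alone, against 4.93% of genes. For Rex2 these counts depend on the start used. Its peak of that list lay 50.4 kb inside the gene from the start in the deposited table. The RefSeq start of its promoter window lies 48240 bases inside the annotated span. Distances from that RefSeq start, which is in another build, were not tested. None of the 7 had a peak of wild type over input (6.94% of genes) or of knockout over input (4.85%) in that window. With a single set of calls for each condition, their repeatability is unknown.

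**Figure D4:**
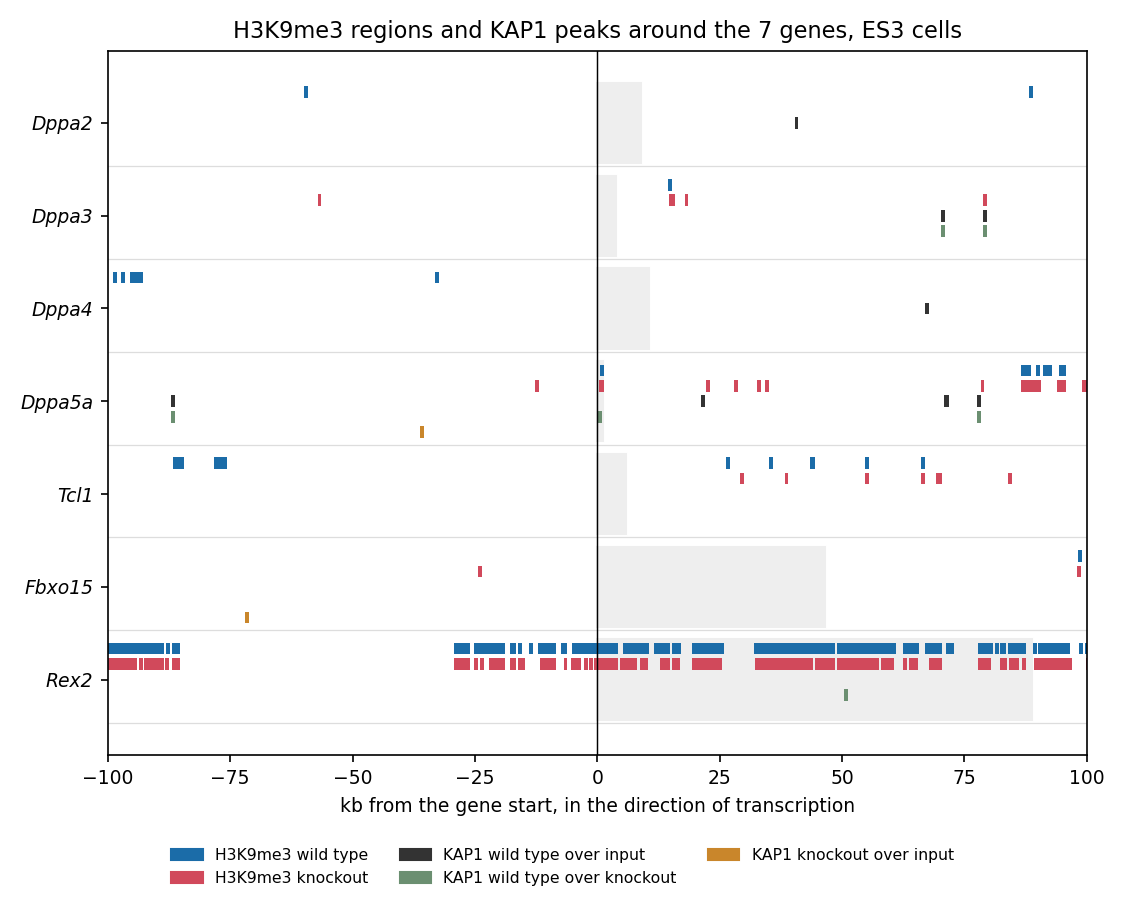
H3K9me3 regions and KAP1 peaks of ES3 cells within 100 kb of the start of each of the 7 genes; the x axis is the distance from the start in kb in the direction of transcription, grey blocks are the genes, and regions narrower than 0.8 kb are drawn 0.8 kb wide. Rex2 lies in a dense run of regions in both conditions, Dppa5a has an H3K9me3 region and a KAP1 peak over its body, and the other 5 gene bodies are free of regions.

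Rex2 lay inside a broad H3K9me3 domain. In wild type 16 regions overlapped its body and covered 65610 bp, or 73.9% of it, and 1 region of 9454 bp (chr4:146340946-146350399) spanned its start. In the knockout 19 regions covered 56468 bp, or 63.6%, and a region of 4789 bp (chr4:146345439-146350227) spanned the start. Only 0.516% of all genes had as large a share of their body in wild-type regions. Within 100 kb there were 30 wild-type regions, and 24 of them overlapped a knockout region. A KAP1 peak of wild type over knockout, with a score of 51.4, lay 50.4 kb inside the gene, near the lowest score of that list (50.01). Of 73 measured genes with 50% or more of their body in wild-type regions, Rex2 among them, 25 (34.2%) were called higher and 3 lower. Their median was 0.76, and 35.6% had a ratio at or above that of Rex2. Over all measured genes 12.5% were called higher and 3.18% lower, with a median of 0.08. Symbols at the same coordinates were not merged, so 1 locus can count more than once. How reads that fit several copies of such zinc finger genes were placed is not given in the sources used here.

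Dppa5a had both marks over its short body, in cells where its RNA was among the most abundant. A wild-type H3K9me3 region of 463 bp (chr9:78214960-78215422) began 0.562 kb downstream of its start, and a knockout region of 1051 bp (chr9:78214557-78215607) covered the same place. A KAP1 peak of wild type over knockout (chr9:78215207-78215886), with a score of 61.07, began 98 bp downstream of the start and shared 216 bp with the wild-type H3K9me3 region. It scored above 54.7% of the peaks of its list, and the list of wild type over input had its nearest peak 21.2 kb away. Both marks together, with a KAP1 peak from either wild-type list, were found over the body of 621 genes (3.49%). Of the 7 genes, these were Dppa5a and Rex2. Of the 621 genes, 407 were measured, 64 called higher and 18 lower. Over all measured genes 12.5% were called higher and 3.18% lower, so more higher than lower calls is not particular to genes with both marks. Within 100 kb of Dppa5a, 4 of 5 wild-type regions overlapped a knockout region, and 10 regions were listed in the knockout. The nearby pseudogenes make the placement of reads over this body uncertain too.

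Dppa2 and Dppa4 lay in a stretch with few regions, all of which were missing from the knockout list. The nearest wild-type region, of 80 bp (chr16:48250740-48250819), was 33.03 kb upstream of Dppa4 and 59.8 kb upstream of Dppa2. Within 100 kb, Dppa4 had 4 wild-type regions and Dppa2 had 2, and none of them overlapped a knockout region; over the genome 48.5% of wild-type regions did. The nearest knockout region was 199.3 kb from Dppa4 and 226.01 kb from Dppa2. A KAP1 peak of wild type over input, with a score of 53.3, lay 40.3 kb downstream of Dppa2, and it was not matched by a peak over knockout within 100 kb. Both genes share this stretch, and their RNA differed in opposite directions within 2-fold.

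Around Tcl1, the gene with the lowest ratio, no H3K9me3 region lay within 20 kb in either condition. The nearest was 26.4 kb downstream in wild type and 29.2 kb downstream in the knockout. Within 100 kb were 7 wild-type regions, of which 2 overlapped a knockout region, and 6 knockout regions. The nearest KAP1 peak of either wild-type list was 600.8 kb away.

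Dppa3 had a wild-type H3K9me3 region of 806 bp 14.5 kb downstream of its start, outside the gene, and it overlapped a knockout region of 1112 bp. The knockout list held 4 regions within 100 kb and the wild-type list 1. The nearest KAP1 peak was 70.3 kb downstream, toward Nanog, with a score of 50.7. Fbxo15, whose RNA differed least, had its nearest wild-type H3K9me3 region 98.3 kb downstream and its nearest knockout region 23.5 kb upstream, and no wild-type KAP1 peak within 100 kb. Its nearest wild-type peak was 127.1 kb upstream.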

How the data were processed

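Duplicate cultures were pooled for each RNA library, per the labels' protocols. The authors deposited RPKM values per RefSeq transcript and a ratio of knockout to wild type, which was not used; reads per library are unknown. Bowtie and mm9 are named, per the submitters' processing notes; which program counted reads, what the RPKM denominator was and how H3K9me3 regions were called is not given in the sources used here. H3K9me3 regions were deposited without values, and KAP1 peaks, named MACS_peak in the files, have a deposited score of unstated scale. The columns of the ES table give genotype but no line; they were taken as ES3, the only ES pair with both genotypes. Rex1GFP, H3K27ac and input libraries were not analysed here.

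Each symbol was represented by its transcript of highest mean RPKM; 820 ES rows and 817 MEF rows without a usable symbol took that of their RefSeq transcript in GRCm38.p6. Ratios used a pseudocount of 1 RPKM, and genes at 1 RPKM in at least 1 library of a table were measured. The ES and MEF tables were deposited separately, so levels set across them are approximate. Distances run from the gene start, strand considered. Named genes are the 7 members, Trim28, the 3 nearest patterns per member, neighbours within 100 kb and the 4 largest ratios per list; any other gene named is an example picked with its values in view. The members and lists were chosen with earlier results of these data known. Scripts used Python 3.11.15, pandas 2.3.3 and numpy 2.4.6, and were tested on simulated data. Alternatives were other pseudocounts, filters, centring, transcript sums, a 3-fold threshold, windows, gene bodies and peak scores.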

Additional observations from a re-analysis of the deposited data

How the results depend on the processing

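The direction of each of the 7 ratios was the same under all 7 alternatives for RNA values, but most of these could not change it. Pseudocounts, filters and the 3-fold threshold cannot change the direction of a ratio. Summing transcript rows could do so for Dppa4 alone, as the other members have a single row or identical rows. Centring shifted every ratio by the median of 0.08, so the unchanged directions say little about robustness. A pseudocount of 0.1 RPKM called 1 member higher, Rex2 (1.19), as did summing transcript rows (1.09), which adds its 2 identical rows, and it called Dppa3 lower (−1.05), as did centring on the median (−1.04). With a 3-fold threshold 1 member, 7 pluripotency genes and 53 ES-restricted genes were lower. ES-restricted genes called lower numbered 62 with a pseudocount of 5 RPKM, and 162 of 1027 when the ES limit was 1 RPKM. Without a filter all 7 members counted as measured in MEFs, by construction. For H3K9me3, the genes with a wild-type region near were 2411 within 10 kb, 8431 within 50 kb, 12352 within 100 kb and 6696 within 20 kb of the gene body, in place of 4344; members were 5 within 50 kb and 7 within 100 kb, in place of 3. For KAP1 peaks of either wild-type list, these genes were 735, 3330, 5817 and 2571, in place of 1410, and 704 with peaks at or above the median score; members were 2 within 50 kb, 5 within 100 kb and 2 within 20 kb of the gene body, in place of 1. Wider windows hold more regions by construction. No paired analysis was possible because each group holds 1 library, and no replicate could be left out. Depth is unknown, so the counting error of RPKM values, which matters most for low ones, cannot be given.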

Other observations

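Several zinc finger genes around Rex2 were higher in the ES3 knockout. Within 1000 kb of the Rex2 start, a window chosen after the values were seen, lay 19 other genes, all measured; 16 had a ratio above 0, 7 were at least 2-fold higher (12.5% of all measured genes were) and none was at least 2-fold lower; the median log2 ratio was 0.76. Zfp992 stood at 2.54 RPKM in wild-type cells against 12.6 RPKM in knockout cells (1.94), Gm13152 at 3.40 and 13.9 RPKM (1.76) and Gm13154 at 4.59 and 11.3 RPKM (1.14). Zfp991 (1.80) and the transcript NM_027285 (1.97) are given at the same coordinates and count 1 locus as 2 genes. The 19 genes are not all zinc finger genes: Plod1, a collagen-modifying enzyme gene at the edge of the window, was also higher (1.38), and Miip (−0.48) was the lowest. Copies of these genes share sequence, and reads shared between them were not tested.

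Downstream of Dppa3, a KAP1 peak lay 1.76 kb upstream of the start of Nanog (chr6:122655163-122655751), with a score of 88.2 over input and 87.3 over knockout. An H3K9me3 region of the knockout list (chr6:122655156-122655627) overlapped it, and the nearest wild-type H3K9me3 region was 65.8 kb from that start. Upstream of Ooep, beside Dppa5a, a region of the knockout list likewise lay 1.92 kb from the start, where the nearest wild-type region was 11.1 kb away.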
